A study of Saccharomyces cerevisiae with 21 samples.

Results

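The comparison described here is budding yeast, Saccharomyces cerevisiae strain S288C, after 25 Gy of carbon ions against the same strain handled without irradiation. It was taken from the labels as the 3 arrays of the heavy ion group, numbered 1 to 3 by their titles, and the high-power and low-power scans of an array were averaged to 1 replicate. That gives 6 of the 21 samples and 3 of the 12 arrays of the series, whose other arrays cover gamma rays, thermal neutrons and fast neutrons. For each array, a 50 ml culture was washed, taken up in 5 ml of ice-cold 0.9% saline in culture flasks, and exposed to accelerated carbon-12 ions of 290 MeV per nucleon for 10 min. The labels give the dose as 25 Gy and the dose rate as 3 Gy per min, which over 10 min would be 30 Gy, and this mismatch was not resolved. Cells were kept on ice and then grew for 40 min at 25 C in 50 ml of fresh rich medium. The control culture was held on ice in the same saline for the same time and recovered in the same way, without irradiation. Both cultures therefore share the wash, the cold, the saline and the return to rich medium, and a ratio leaves these out. One strain, 1 dose and 1 recovery time were measured.

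Carbon ions are heavy charged particles that deposit their energy densely along a track and are known for clustered lesions and double-strand breaks. In budding yeast the kinases Mec1 and Tel1 sense such damage and signal through Rad53 and Dun1. Dun1 acts on the repressor Rfx1, also called Crt1, which otherwise holds down HUG1 and the damage-induced genes of ribonucleotide reductase, the enzyme that makes deoxynucleotides. The checkpoint also delays the cell cycle. Late in the cycle daughter cells turn on the genes that dissolve the wall between mother and daughter. A further set of genes, driven by Msn2 and Msn4, answers many kinds of stress.

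Values are log2 ratios of irradiated (Cy5) over control (Cy3), as deposited after the authors' normalisation. Every array carries the dyes the same way round, so that any dye bias of a gene stays in its ratio against control. The labels' channel order gives the direction, and no dye swap tests it. With the log2 scale, 1 is a 2-fold difference and 0 is no difference. Means are given ± SD over the 3 arrays (n = 3), and adjusted p-values come from limma on the 9 arrays of the table that carbon ions share with gamma rays and thermal neutrons. A gene is said to rise or fall where this adjusted p was under 0.05. The files hold ratios and no signal intensities, so neither levels nor the signal behind a ratio can be given. The number of arrays limits the precision, and by the series text samples were collected independently.

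Of 5379 genes named on the array, 5095 had a value on all 3 carbon ion arrays. Arrays 1 and 2 correlated across genes with r = 0.714, arrays 1 and 3 with 0.540 and arrays 2 and 3 with 0.437. Genes are not independent replicates. The SD over genes was 0.467, 0.611 and 0.427 on arrays 1, 2 and 3. Array 2 had 230 genes lower by more than 2-fold, against 55 on array 1 and 46 on array 3. The scans of array 3 correlated across probes with r = 0.698, against 0.850 and 0.845 for the other arrays. Results that rest on array 2 or go missing on array 3 are named below.

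In limma, 1148 of 5095 genes passed (22.5%), with 517 higher (10.1%) and 631 lower (12.4%). Of these, 1130 had the same sign on all 3 arrays, beside 2896 of all 5095 genes (56.8%). The calls come from the same arrays and so favour genes with 1 sign. At least a 2-fold change was reached by 125 genes (2.45%), 91 of them higher (1.79%) and 34 lower (0.667%). The higher changes were thus more often large. Of 427 probes with no gene symbol 25 passed (5.85%), 24 higher (5.62%) and 1 lower (0.234%). With the carbon ion arrays fitted alone, 532 genes passed (10.4%), 290 higher (5.69%) and 242 lower (4.75%), and 520 genes passed both fits (10.2%). The count was 434 without array 1, 399 without array 2 and 1086 without array 3. When each array was centred on its median, 617 genes were higher and 511 lower, so the majority turned. The counts of higher and lower genes are therefore set beside each other only with that limit. The median of all genes was -0.04.

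The log2 ratios depended on gene length. Among the 95 genes whose annotated span is at most 300 bp, 38 were called higher (40%) and the median log2 ratio was 0.40. From 300 to 500 bp 82 of 423 were higher and 4 lower, and from 500 to 800 bp 117 of 794 were higher and 41 lower. The balance then turned. From 2000 to 3000 bp 42 of 720 were higher and 118 lower, and above 3000 bp 8 of 349 were higher and 52 lower, with a median of -0.17. Across the 5095 genes, which share their arrays, Spearman's rho of the mean log2 ratio with span was -0.302. It was -0.369, -0.255 and -0.158 on arrays 1, 2 and 3. The 3 arrays had the same sign, and array 3 had the weakest trend. For gamma rays the same rho was 0.135, for thermal neutrons -0.246 and for fast neutrons -0.346. With a smooth length trend taken off each array, an alternative added after the data had been seen, 970 genes passed, and 831 of them were among the 1148. The part of length in the results below was not tested beyond this alternative, whose counts stand beside several of the groups of short genes.

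**Figure D1:**
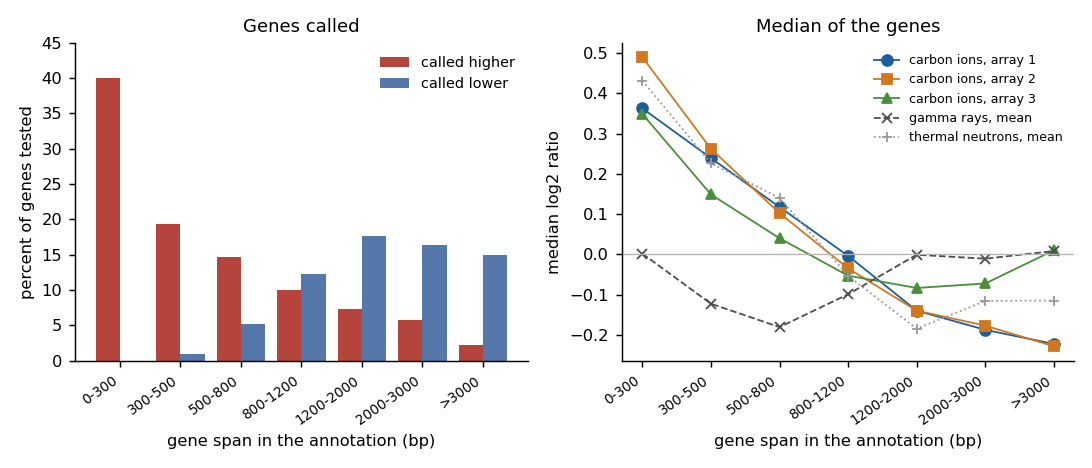
Left, the percent of genes called higher or lower after carbon ions in 7 classes of annotated gene span (bp). Right, the median log2 ratio of the genes in each class, for each carbon ion array and for the means of gamma rays and thermal neutrons. The share called higher drops from 40% in the shortest class to 2.29% in the longest. The medians drop from 0.36 to -0.22 on array 1 and from 0.49 to -0.23 on array 2, while array 3 goes from 0.35 to 0.01 in the longest class.

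HUG1, RNR4 and RNR2, of ribonucleotide reductase and its control, were among the highest means, although TMA10 and YNL194C, given below, lay above RNR2. HUG1 (YML058W-A), a small protein that inhibits ribonucleotide reductase, stood at 2.86, 3.35 and 3.12 on arrays 1, 2 and 3. It was the highest mean of all tested genes, at 3.11 ± 0.25, or 8.63-fold (adjusted p = 7.9e-08). RNR4 (YGR180C), a small subunit of the enzyme, stood at 2.61, 2.91 and 2.57, and rose 6.48-fold (2.70 ± 0.18, adjusted p = 1e-07). RNR2 (YJL026W), its catalytic small subunit, stood at 2.27, 2.67 and 2.36, and rose 5.41-fold (2.44 ± 0.21, adjusted p = 5.4e-07). All 3 genes were high on every array, and the spread between arrays was small beside the mean. HUG1 spans 207 bp, and the order of these means changed with the length trend removed. RNR4 then stood at 2.71, HUG1 at 2.69, RNR2 at 2.48, YNL194C at 2.47 and TMA10 at 2.26, all still called. RNR2 and RNR4 had values in the low-power scans only, which the authors made to rescue spots above the scanning range.

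The large subunits gave another pattern. RNR3, the large subunit known for its induction by damage, was measured on arrays 1 and 3 only, at 1.17 and 0.84, and was not tested. RNR1 (YER070W), the main large subunit, stood at -0.05, -0.61 and 0.54, so the arrays did not share a sign, and it did not pass (-0.04 ± 0.58, adjusted p = 0.91). RFX1 (YLR176C), the repressor of these genes and itself one of its targets, stood at 0.68, 0.55 and 0.64 and rose 1.54-fold (adjusted p = 0.013). WTM1 (YOR230W), which holds Rnr2 and Rnr4 in the nucleus, stood at 0.43, 0.56 and 0.17 and rose 1.31-fold (adjusted p = 0.032, and 0.1 with the carbon ion arrays alone). Its paralogue WTM2 did not pass (-0.05 ± 0.25). SML1, the inhibitor of the large subunit, was at 0.31 ± 0.07 and DIF1, which imports the small subunits into the nucleus, at 0.34 ± 0.34, and neither passed (adjusted p = 0.09 and 0.13). Of the 9 tested genes of this group 5 rose, with a median of 0.39, and without arrays 1, 2 and 3 the count was 3, 3 and 5.

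Among 21 other genes known to be induced by DNA damage, 10 rose and 1 fell, with a median of 0.47 beside -0.04 for all genes. DDR2 (YOL052C-A), found as a damage-responsive gene and since known as a general stress gene, stood at 1.91, 2.06 and 1.97 and rose 3.95-fold (1.98 ± 0.08, adjusted p = 1.5e-06). PLM2 (YDR501W), a forkhead-associated domain protein, stood at 0.98, 0.61 and 1.38 and rose 1.99-fold (adjusted p = 0.0031). RAD16 (YBR114W), of nucleotide excision repair, stood at 0.67, 1.47 and 0.61, with array 2 the highest, and rose 1.89-fold (adjusted p = 0.0037). PHR1, the photolyase, reached 0.88 ± 0.42. MAG1 (YER142C), a glycosylase that removes alkylated bases, stood at 0.61, 0.79 and 0.61 and rose 1.59-fold (adjusted p = 0.0066). DUN1, the kinase upstream of Rfx1, rose by 0.48 ± 0.29, DDR48 by 0.54 ± 0.21 and RFA3, the smallest subunit of the single-strand binding protein RPA, by 0.47 ± 0.06. With the carbon ion arrays alone 5 of the 10 passed, and without arrays 1, 2 and 3 the count was 5, 6 and 5. With the length trend removed 8 were higher, and RFA3 was no longer called (adjusted p = 0.28). DDR2, which spans 186 bp, then stood at 1.53 and was still called.

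Of 24 tested genes of double-strand break repair 22 did not pass and 2 rose, a share below the 10.1% of all genes (median 0.15). Those were the recombination genes RAD59 (YDL059C), at 0.09, 0.97 and 0.57, and RAD54 (YGL163C), at 0.48, 0.13 and 0.96. Both were low on 1 array, and neither passed with the carbon ion arrays alone (adjusted p = 0.11 for each). RAD52, the central recombination protein, stood at 0.46, 0.30 and 0.32 and just missed the threshold (0.36 ± 0.09, adjusted p = 0.05). In excision and mismatch repair 2 of 25 rose, MAG1 and RAD16, and 2 fell. Both shares lie below the 10.1% higher and 12.4% lower of all genes. Those that fell were OGG1, which removes oxidised guanine (-0.50 ± 0.37), and the nuclease subunit RAD10 (-0.43 ± 0.15). These 2 no longer passed with the carbon ion arrays alone (adjusted p = 0.1 and 0.072), without array 1 (0.14 and 0.18) or without array 2 (0.21 and 0.073).

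Of 15 checkpoint genes 4 fell and 2 rose, beside 12.4% and 10.1% of all genes. TOF1 (YNL273W), of the complex that steadies stalled forks, stood at -1.01, -1.19 and -0.62 and was 1.92-fold lower (-0.94 ± 0.29, adjusted p = 0.002). Its partner CSM3 stood at -0.13, -1.33 and -0.42, so most of its mean came from array 2 (-0.63 ± 0.63, adjusted p = 0.033, and 0.13 with the carbon ion arrays alone). CHK1 (YBR274W), an effector kinase, stood at -0.56, -0.67 and -0.77 and was 1.59-fold lower (adjusted p = 0.0019). RAD24, which loads the checkpoint clamp, was at -0.61 ± 0.41 (adjusted p = 0.014). The 2 that rose were DUN1 and RFX1, given above. The effector kinase RAD53 stood at -0.22, 0.17 and 0.68 (adjusted p = 0.39) and its adaptor RAD9 at -0.02, -0.74 and -0.24 (adjusted p = 0.13), so neither passed.

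In the tolerance group of 9 genes, UBC13 and MMS2, the pair that extends ubiquitin chains on the sliding clamp, rose by 0.37 and 0.51, and POL30, the clamp itself, fell by 0.45. With the carbon ion arrays alone these 3 no longer passed (adjusted p = 0.085 for POL30). With the length trend removed UBC13 and MMS2 also lost their calls (adjusted p = 0.1 and 0.054), and 2 members of this group, whose median span is 777 bp, were lower. Of 37 replication genes 33 had a mean below 0, beside 2751 of all 5095 genes, and their median was -0.27. Of the 37 genes 5 fell, a share close to the 12.4% of all genes. They were POL12 (-0.88 ± 0.67), of the primase complex, CDC6 (-0.69 ± 0.43), which loads the replicative helicase, the helicase subunit MCM2 (-0.53 ± 0.27), and PSF3 (-0.55 ± 0.11) and PSF2 (-0.47) of GINS. POL12 stood at -0.62, -1.64 and -0.38, again lowest on array 2. With the carbon ion arrays alone PSF3 still passed (adjusted p = 0.042). POL12, CDC6, MCM2 and PSF2 did not (adjusted p = 0.077, 0.067, 0.068 and 0.056). Without arrays 1, 2 and 3 the count of replication genes that fell was 2, 1 and 5. Of 9 histone genes, in limma 3 had an unadjusted p under 0.05, all lower, and 0 passed (median -0.23). Histone genes are short, and with the length trend removed 4 of the 9 were lower and their median was -0.48.

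**Figure D2:**
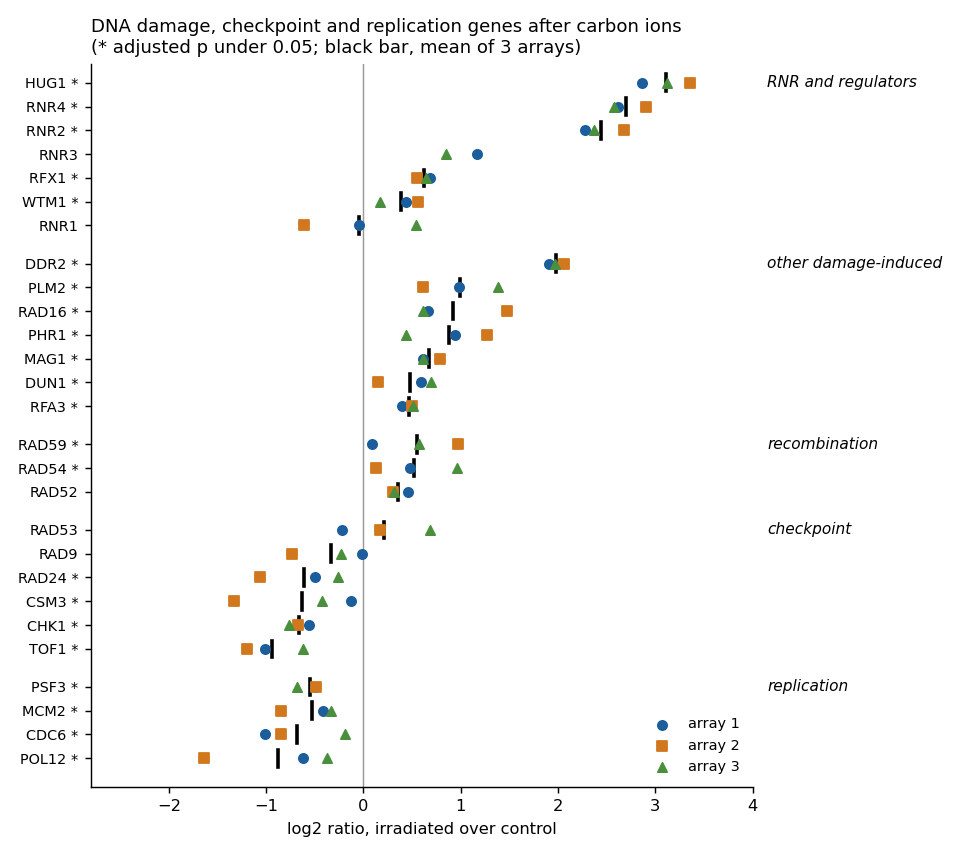
Log2 ratio of irradiated over control for genes of the DNA damage response on each carbon ion array, grouped by role. Coloured points are arrays, black bars the mean of 3 arrays, and asterisks mark an adjusted p under 0.05. HUG1, RNR4, RNR2 and DDR2 lie at 1.91 or above on each array. The recombination genes RAD59, RAD54 and RAD52 lie above 0 on all 3 arrays. In the checkpoint group RAD9, RAD24, CSM3, CHK1 and TOF1 lie below 0 on all 3, and RAD53 lies on both sides of it. RNR3 has values on arrays 1 and 3 only.

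The genes of mother and daughter separation were among the lowest. Of 19 tested, 14 fell and 1 rose, and 13 fell with the carbon ion arrays alone. The median was -0.71, and it was -0.50, -0.81 and -0.91 on arrays 1, 2 and 3. SCW11 (YGL028C), a wall glucanase, stood at -1.71, -2.28 and -1.94 and was 3.94-fold lower (-1.98 ± 0.29, adjusted p = 3.1e-06). DSE1 (YER124C), a daughter-specific protein, stood at -1.75, -2.02 and -1.58 and was 3.44-fold lower (adjusted p = 7.9e-05). The daughter-specific glucanases DSE2 (YHR143W) and DSE4 (YNR067C) were 3.30-fold and 3.25-fold lower (-1.72 ± 0.18 and -1.70 ± 0.13). EGT2 (YNL327W), of the same late step, stood at -1.78, -1.72 and -1.56 and was 3.22-fold lower (adjusted p = 7.6e-06). CTS1 (YLR286C), the chitinase that cuts the septum, stood at -1.39, -1.50 and -1.35 and was 2.67-fold lower (-1.41 ± 0.07, adjusted p = 1.2e-05), on low-power scans only. AMN1, which turns off mitotic exit in daughters, stood at -1.36, -1.28 and -1.32. No array stood near 0 for any of these 7 genes.

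Further members of the group moved less. The wall-linked protein PRY3 was at -1.42 ± 0.09 and the bud site protein BUD9 at -1.02 ± 0.19. The daughter-specific repressor ASH1, which keeps daughters from switching mating type, fell by 0.59 ± 0.17 (adjusted p = 0.035). RME1, a repressor of meiosis, stood at -0.63 ± 0.26 and the cyclin PCL9 at -0.52 ± 0.04. PST1, a wall protein that also rises with wall damage, was the 1 member that rose (0.64 ± 0.29, adjusted p = 0.0073). Without arrays 1, 2 and 3 the count of members that fell was 12, 11 and 10. These genes are long, with a median span of 1644 bp, and 13 fell with the length trend removed.

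Genes of the G1 phase fell too. HO (YDL227C), the endonuclease of mating type switching, which is transcribed in mother cells late in G1, stood at -1.65, -2.44 and -2.08 and was 4.17-fold lower (-2.06 ± 0.40, adjusted p = 0.00013). CLN2 (YPL256C), a G1 cyclin that drives budding, stood at -2.09, -1.79 and -1.81 and was 3.72-fold lower (-1.90 ± 0.17, adjusted p = 3.1e-06). Its partner CLN1 was measured on arrays 1 and 3 only, at -0.98 and -1.33, and was not tested. NRM1, a repressor of G1/S genes, was at -1.02 ± 0.53 and the cyclin PCL1 at -0.96 ± 0.60. PCL1 stood at -0.95, -1.57 and -0.37, lowest on array 2. It did not pass with the carbon ion arrays alone (adjusted p = 0.054), without array 1 or without array 2. CLN3, the most upstream G1 cyclin, did not pass (0.26 ± 0.10, adjusted p = 0.14), nor did the S-phase cyclin CLB5, whose arrays stood at -0.13, 0.06 and 0.06, nor SIC1, the inhibitor of its kinase (-0.36 ± 0.26, adjusted p = 0.078). In this group 5 of 15 fell, and 4 did so with the carbon ion arrays alone.

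Of 29 genes expressed at the G1/S transition 14 fell and 1, PLM2, rose, with a median of -0.38. HCM1, a forkhead factor of S phase, was at -1.09 ± 0.48, the repressor YOX1 at -1.04 ± 0.39, MNN1, a mannosyltransferase, at -0.99 ± 0.21 and the cohesin subunit MCD1 at -0.78 ± 0.26. Without arrays 1, 2 and 3 the count that fell was 8, 7 and 11. Of 24 genes of mitosis 10 fell, with a median of -0.35, and 5 did so with the carbon ion arrays alone. The mitotic cyclin CLB1 stood at -0.94, -1.95 and -0.76 (-1.22 ± 0.64, adjusted p = 0.0018), and its partner CLB2 at -1.03, -0.76 and -0.46 (adjusted p = 0.009). The polo kinase CDC5 stood at -0.97, -1.75 and -0.28, lowest on array 2 (adjusted p = 0.0082, and 0.069 with the carbon ion arrays alone). The kinase ALK1 fell by 1.01 ± 0.26 and SWI5, a transcription factor of late mitosis, by 0.51 ± 0.23. SWI5 did not pass with the carbon ion arrays alone (adjusted p = 0.066), without array 1, without array 2 or with the length trend removed. The count of mitotic genes that fell was 5 without array 1, 3 without array 2 and 10 without array 3. SFG1 (YOR315W), a growth regulator outside these lists, stood at -1.73, -2.39 and -1.30 and was 3.50-fold lower (adjusted p = 0.00017). Which phase the cells were in was not measured. In such a bulk culture, fewer cells in a phase and less RNA per cell cannot be told apart.

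**Figure D3:**
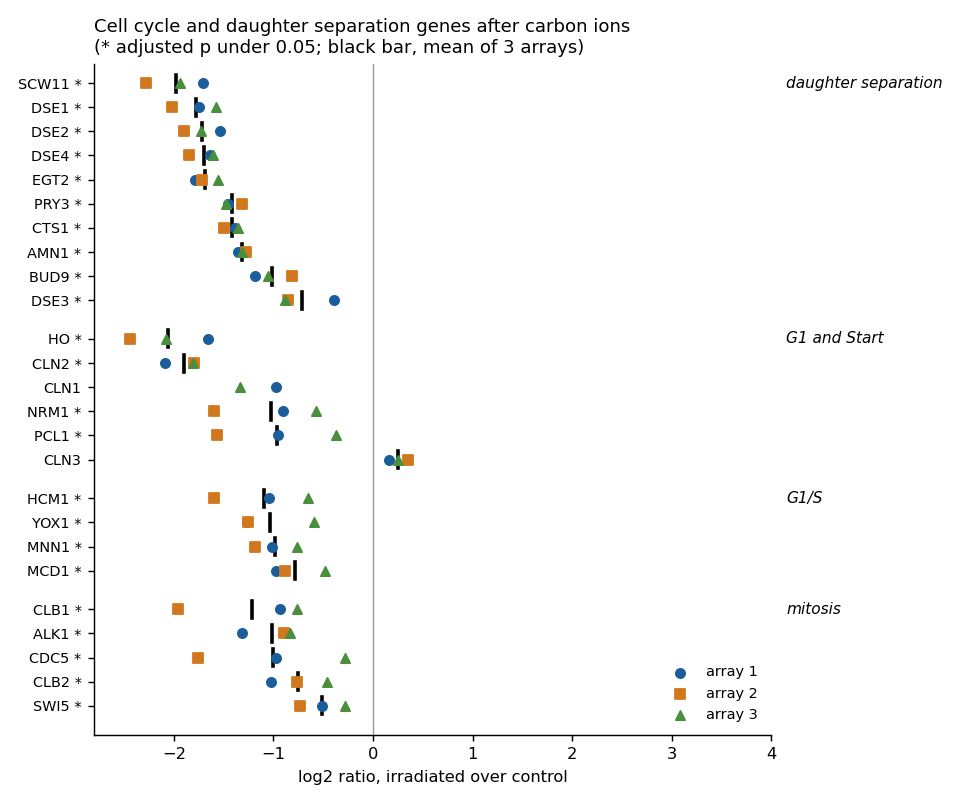
Log2 ratio of irradiated over control for genes of daughter separation, G1, the G1/S transition and mitosis on each carbon ion array. Coloured points are arrays, black bars the mean of 3 arrays, and asterisks mark an adjusted p under 0.05. The separation genes SCW11 to EGT2 lie at -1.54 or lower on every array, and CLN2 and HO at -1.65 or lower, while CLN3 lies above 0. CLN1 has values on arrays 1 and 3 only.

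Genes of the general stress response rose in 32 of 40 tested, and 1 fell. Their median was 0.89, and it was 0.99, 1.03 and 0.69 on arrays 1, 2 and 3. With the carbon ion arrays alone 25 rose, and without arrays 1, 2 and 3 the count was 23, 24 and 31. HSP12 (YFL014W), which protects membranes, stood at 1.62, 2.27 and 2.06 and rose 3.96-fold (1.98 ± 0.33, adjusted p = 1.3e-05). SPI1 (YER150W), a wall protein, stood at 1.98, 2.20 and 1.11 and rose 3.39-fold. TFS1 (YLR178C), an inhibitor of carboxypeptidase Y, stood at 1.62, 1.66 and 1.38 and rose 2.94-fold (adjusted p = 1.3e-05). The hexokinase HXK1 reached 1.39 ± 0.39, the membrane protein RTN2 1.25 ± 0.18, the sugar lactonase SOL4 1.22 ± 0.16 and the cytosolic catalase CTT1 0.95 ± 0.38. The 1 member that fell was MSN2 (YMR037C), a factor that drives these genes, at -0.67, -0.37 and -0.39 (adjusted p = 0.022, and 0.063 with the carbon ion arrays alone), while its paralogue MSN4 did not pass (0.04 ± 0.21). HSP26, often among the strongest genes of this set, stood at 0.08 and -0.05 on arrays 1 and 3 and was not tested.

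Several of the highest means belonged to genes of less known function. TMA10 (YLR327C), a protein found with ribosomes, stood at 3.48, 2.94 and 1.44 and rose 6.15-fold (2.62 ± 1.06, adjusted p = 0.00044). YNL194C, a membrane protein counted below with the SUR7 family, stood at 2.78, 3.11 and 1.62 and rose 5.67-fold (adjusted p = 0.00011). YNR014W, of unknown function, stood at 2.64, 2.90 and 0.93, and the kinase RCK1 (YGL158W) at 2.48, 2.16 and 1.01. In each of these 4 genes array 3 was the lowest by a wide margin. FMP16 (YDR070C), found in mitochondria, behaved otherwise, at 1.55, 1.85 and 1.57 (1.66 ± 0.17, adjusted p = 8.6e-05). YPR015C, a zinc finger protein, was at 1.80 ± 0.67, IGD1, an inhibitor of glycogen breakdown, at 1.64 ± 0.26 and BAG7, a GTPase activator, at 1.61 ± 0.44. At the other end, outside the lists, stood HLR1, at -2.16, -1.96 and -0.56, MLO50 at -1.29 ± 0.43 and RBH2 at -1.25 ± 0.30. An extreme mean came from 1 array in 2 genes that did not pass, VLD1, at 0.31, 0.57 and 6.77, and SNT1, at -0.18, -6.64 and 0.27, where -6.64 is the lowest value the deposited ratios take. These 2 were chosen after their values were seen.

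Storage carbohydrate genes differed between arrays. GLC3 (YEL011W), the glycogen branching enzyme, stood at 2.57, 3.08 and 0.58 (2.08 ± 1.32, adjusted p = 0.0055). GSY1 (YFR015C), a glycogen synthase, stood at 2.11, 2.88 and -0.04, and GAC1, which targets a phosphatase to it, at 1.65, 1.97 and -0.08, so array 3 showed neither. Both passed in the fit of 9 arrays (adjusted p = 0.022 and 0.041) and missed with the carbon ion arrays alone (0.092 and 0.1). The enzymes of breakdown were steadier. GDB1 (YPR184W), which debranches glycogen, stood at 1.27, 1.20 and 1.06 (1.18 ± 0.11, adjusted p = 0.00021), and the phosphorylase GPH1 at 1.11, 1.37 and 0.68. Of 15 glycogen genes 7 rose, and without arrays 1, 2 and 3 the count was 4, 3 and 7. Of 7 trehalose genes 4 rose, among them TPS2 (1.36 ± 0.50), which makes trehalose from its phosphate, and ATH1 (0.85 ± 0.19), which splits it, while the synthase TPS1 stood at 0.71, 0.16 and 0.08 and did not pass.

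Redox genes rose in several branches. Of 12 peroxiredoxin and thioredoxin genes 10 rose and 1 fell, with a median of 0.49, and 4 rose with the carbon ion arrays alone. AHP1 (YLR109W), a peroxiredoxin, stood at 1.42, 1.19 and 0.95 (1.19 ± 0.23, 2.28-fold, adjusted p = 0.00021). TRX2, a thioredoxin, was at 0.97 ± 0.31 and PRX1, the mitochondrial peroxiredoxin, at 0.80 ± 0.14. YAP1, the factor that drives many of these genes, rose by 0.40 ± 0.15 and SKN7, a factor that acts with it, fell by 0.60 ± 0.30. Neither passed with the carbon ion arrays alone or without array 1, and YAP1 also did not pass without array 2 or without array 3. Without arrays 1, 2 and 3 the count of genes that rose was 4, 6 and 6. Of 12 genes that remove superoxide and peroxide 6 rose, with SOD1 (YJR104C), the copper and zinc superoxide dismutase, at 1.25, 1.18 and 1.04 (1.16 ± 0.11, adjusted p = 0.00011). Of 16 glutathione genes 5 rose, led by the transferase GTT1 (1.55 ± 0.39) and the glutaredoxin GRX2 (1.02 ± 0.23). Many of these genes are short, with median spans of 620, 726 and 744 bp in the 3 groups. With the length trend removed the counts of risers were 6, 4 and 3, and SOD1, AHP1, GTT1 and GRX2 were still called.

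Protein folding genes moved in both directions. Of 35 cytosolic chaperone genes 7 rose and 4 fell, beside 10.1% and 12.4% of all genes, and the median was 0.01. HSP42 (YDR171W), a small heat shock protein, stood at 1.34, 1.07 and 0.75 (adjusted p = 0.00034), HSP104, the disaggregase, at 0.99, 1.07 and 0.66 (adjusted p = 0.0086) and SSA4, the heat-inducible Hsp70, at 0.55, 0.80 and 0.71 (adjusted p = 0.002). The Hsp90 partner CPR7 fell by 0.94 ± 0.11, and the ribosome-bound chaperone SSZ1 by 0.69 ± 0.31. Without arrays 1, 2 and 3 the count of cytosolic chaperones that rose was 4, 2 and 4. Of 36 proteasome genes 33 did not pass and 3 rose, a share below the 10.1% of all genes (median 0.24). Among the risers was UMP1, the assembly chaperone of the proteasome (0.57 ± 0.09), and 1 rose with the carbon ion arrays alone. UMP1 was not called with the length trend removed (adjusted p = 0.077). Of 24 genes of ubiquitin and autophagy 7 rose, and all 7 passed with the carbon ion arrays alone. They include the ubiquitin-conjugating enzyme UBC5 (1.17 ± 0.16), ATG8 (1.06 ± 0.42), which coats autophagosomes, the vacuolar protease PEP4 (0.82 ± 0.06), the polyubiquitin gene UBI4 (0.80 ± 0.30) and ATG1 (0.68 ± 0.20), the kinase that starts autophagy.

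Ribosomal protein genes and genes of ribosome assembly stood on opposite sides of 0. Of 125 cytosolic ribosomal protein genes 36 rose and 89 did not pass. Their median was 0.28, and it was 0.25, 0.28 and 0.19 on arrays 1, 2 and 3. RPS26A (YGL189C) stood at 1.19, 0.88 and 1.03 (1.03 ± 0.16, adjusted p = 0.001), RPL25 at 0.91 ± 0.20, RPL36B at 0.85 ± 0.18 and RPL37A at 0.83 ± 0.28. With the carbon ion arrays alone 19 rose, and without arrays 1, 2 and 3 the count was 12, 18 and 24. These genes are short, with a median span of 799 bp introns included, and within the group the mean log2 ratio and span gave Spearman's rho of -0.411. With the length trend removed 23 rose and 1 fell, and the median was 0.15. Most of these proteins are encoded by near-identical gene pairs, whose probes may share signal. Of 72 mitochondrial ribosomal protein genes 2 rose and 2 fell, shares below the 10.1% and 12.4% of all genes. Their median was 0.04, and with the length trend removed 4 fell.

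Of 52 genes of the small subunit processome and 40S assembly, 49 had a mean below 0 and 20 fell, with a median of -0.45. The arrays differed, with medians of -0.52, -0.65 and -0.09. HCA4 (YJL033W), an RNA helicase, stood at -0.96, -1.51 and -0.62 (-1.03 ± 0.45, adjusted p = 0.0063), SOF1 at -0.94, -1.06 and -0.44 (adjusted p = 0.0074) and RRP9 at -1.31, -2.01 and -0.03 (adjusted p = 0.039), so that for RRP9 array 3 showed no difference. Of 57 genes of 60S assembly 15 fell, among them the GTPase NUG1 (-0.75 ± 0.30) and SDA1 (-0.90 ± 0.69), and the medians by array were -0.36, -0.51 and -0.09. These counts rest on arrays 1 and 2. For 40S assembly 4 fell with the carbon ion arrays alone, 1 fell without array 1 (18 at an unadjusted p under 0.05), 0 without array 2 (16) and 27 without array 3. For 60S assembly 3 fell with the carbon ion arrays alone, 0 without array 1 (19 at an unadjusted p under 0.05), 0 without array 2 (15) and 22 without array 3. With the length trend removed 13 and 12 fell.

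RNA polymerases I and III, which transcribe ribosomal and transfer RNA, had 10 of 37 genes lower and 2 higher, with a median of -0.27. RRN9, of the upstream activation factor of polymerase I, was at -0.80 ± 0.41, and the polymerase I subunits RPA135 and RPA49 at -0.59 ± 0.13 and -0.61 ± 0.13. RPC10, a small subunit shared by all 3 polymerases, rose by 0.61 ± 0.17, but its gene spans 213 bp and it was not called with the length trend removed (adjusted p = 0.26). The count that fell was 2 without array 1, 1 without array 2 and 9 without array 3. Of 36 translation factor genes 7 fell and 3 rose, beside 12.4% and 10.1% of all genes. The risers include the short genes SUI1 (0.63 ± 0.08) and TIF11 (0.59 ± 0.17), which select the start codon, and neither was called with the length trend removed (adjusted p = 0.062 and 0.15). The genes that fell include NIP1, of initiation factor 3, at -0.58, -1.29 and -0.23, and PAB1, the poly(A) binding protein, at -0.25, -1.11 and -0.26, both lowest on array 2. The 7 no longer passed with the carbon ion arrays alone, where limma gave NIP1 an adjusted p of 0.086 and PAB1 of 0.12.

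Of 61 genes of amino acid biosynthesis 22 fell and 2 rose, with a median of -0.34, and 9 fell with the carbon ion arrays alone. The largest decreases were in TRP3 (YKL211C), of tryptophan synthesis, at -0.67, -1.48 and -0.65 (-0.93 ± 0.48, adjusted p = 0.0034), and LYS12, of lysine synthesis, at -0.90 ± 0.31. LEU9 (YOR108W), which starts leucine synthesis, stood at -0.77, -0.91 and -0.76 (-0.82 ± 0.09, adjusted p = 0.001), and ILV3 and HIS5 at -0.72 ± 0.21 and -0.70 ± 0.16. GCN4, the factor that drives many of these genes, did not pass and was steady at -0.08, -0.06 and -0.10. The count that fell was 7 without array 1, 5 without array 2 and 17 without array 3. CHA1 (YCL064C), which breaks down serine and threonine, stood at -1.10, -1.13 and -1.29 and was 2.26-fold lower (-1.17 ± 0.11, adjusted p = 0.00011). Among permeases, GNP1 fell to -0.81 ± 0.31, DIP5 to -0.70 ± 0.23 and the lysine permease LYP1 to -0.67 ± 0.07. In all, 5 of 34 genes of nitrogen use and permeases fell, beside 12.4% of all genes, and all 5 passed with the carbon ion arrays alone.

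Nuclear genes of respiration rose in 16 of 44, with a median of 0.33, and 10 rose with the carbon ion arrays alone. CYC7 (YEL039C), the less abundant cytochrome c, stood at 1.20, 1.16 and 1.48 (1.28 ± 0.17, 2.43-fold, adjusted p = 0.00028). STF1, which steadies the inhibitor of ATP synthase, was at 1.14 ± 0.06, the ATP synthase subunit ATP15 at 0.98 ± 0.17 and the cytochrome oxidase subunit COX9 at 0.86 ± 0.11. These genes are short, with a median span of 476 bp. With the length trend removed 10 rose and the median was 0.15, and CYC7, STF1, ATP15 and COX9 were still called. Without arrays 1, 2 and 3 the count was 8, 10 and 15. The mitochondrial genome's ATP6 (Q0085) stood at -1.05, -0.74 and -1.38 (-1.05 ± 0.32, adjusted p = 0.00051). Mitochondrial transcripts of yeast lack a poly(A) tail, the RNA was purified with oligo(dT), and the part of this step was not tested. CIT2, the peroxisomal citrate synthase, fell by 0.90 ± 0.39.

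Among 31 glycolysis and fermentation genes 9 rose, including the fructose 2,6-bisphosphate maker PFK26 (1.22 ± 0.27), TPI1 (0.65 ± 0.18) and GPM1 (0.63 ± 0.15). The count was 6 without array 1, 5 without array 2 and 10 without array 3. Of 24 hexose transport genes and their regulators 6 rose and 1 fell. MTH1 (YDR277C), which represses hexose transporters, stood at 1.93, 2.16 and 0.52 (1.54 ± 0.89, adjusted p = 0.016). HXT5, a transporter of slow growth, stood at 1.11, 1.67 and 0.41, and the high-affinity pair HXT6 and HXT7, near-identical genes whose probes may share signal, at 0.76 ± 0.38 and 0.83 ± 0.33. RGT2, a glucose sensor, fell by 0.64 ± 0.28. The group median was 0.43, 0.70 and 0.13 on arrays 1, 2 and 3. The count that rose was 5 with the carbon ion arrays alone, 2 without array 1, 0 without array 2 (5 at an unadjusted p under 0.05 in limma) and 9 without array 3.

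Metal genes changed in both directions. FIT1, FIT2 and FIT3, mannoproteins that hold iron carriers in the wall, rose to 0.61 ± 0.24, 0.79 ± 0.36 and 0.71 ± 0.13. The reductive uptake system fell. The permease FTR1 (YER145C) stood at -0.97, -1.12 and -0.65 (-0.91 ± 0.24, adjusted p = 0.0021), its oxidase FET3 at -0.79, -0.83 and -0.52 (adjusted p = 0.0065) and the reductase FRE1 at -0.83, -0.86 and -0.58 (adjusted p = 0.015). The vacuolar permease FTH1 fell by 0.63 ± 0.10. These 7, named after their values were seen, passed with the carbon ion arrays alone. FIT1, FET3 and FRE1 did not pass without array 1 (adjusted p = 0.071, 0.052 and 0.084), nor FET3 and FRE1 without array 2 (0.054 and 0.088), nor FIT2 without array 3 (0.065) or with the length trend removed (0.061). Of 36 genes for iron, copper and zinc 7 rose and 8 fell, beside 10.1% and 12.4% of all genes. Without array 1 the counts were 3 and 2. In the phosphate group of 22 genes 5 fell and 2 rose, beside 12.4% and 10.1% of all genes. The alkaline phosphatase PHO8 (-0.72 ± 0.15) and the transporter PHO84 (-0.54 ± 0.38) were among the 5 that fell. PHM7 (1.46 ± 0.32) and PHO89 (0.68 ± 0.20) were the 2 that rose. Of the 5, 1 fell without array 1, 1 without array 2 and 1 with the carbon ion arrays alone.

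Membrane and wall genes changed in both directions. Of 32 ergosterol and fatty acid genes 10 fell and 1 rose, led by the fatty acid elongase ELO3 (-0.82 ± 0.31), and 3 fell with the carbon ion arrays alone. The count was 1 without array 1, 2 without array 2 and 5 without array 3. Of 19 phospholipid genes 6 fell, among them the inositol transporter ITR1 (-0.61 ± 0.05), while OPI3, a methyltransferase of phosphatidylcholine synthesis, rose (0.81 ± 0.23). The count that fell was 2 with the carbon ion arrays alone, 1 without array 1 and 0 without array 2 (4 at an unadjusted p under 0.05 in limma), and ITR1 did not pass without array 1 or array 2 (adjusted p = 0.059 and 0.064). The eisosome and SUR7 group, which marks furrows of the plasma membrane, had 7 of 17 genes higher, among them FMP45 (1.11 ± 0.50), the small membrane protein PMP3 (1.10 ± 0.13) and the eisosome core LSP1 (0.62 ± 0.11). The other core gene, PIL1, did not pass (0.02 ± 0.29). Of 42 wall genes 11 rose and 8 fell, beside 10.1% and 12.4% of all genes. The risers include PIR3 (1.06 ± 0.35), the mannoprotein CWP1 (0.77 ± 0.20) and SLT2 (0.60 ± 0.24), the kinase of the wall integrity pathway. Those that fell include the glucanase EXG1 (-0.98 ± 0.45) and the glucan-remodelling enzyme GAS1 (-0.53 ± 0.05). Without array 2 the wall genes that rose were 5 and those that fell 3, and the eisosome genes that rose were 3.

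**Figure D4:**
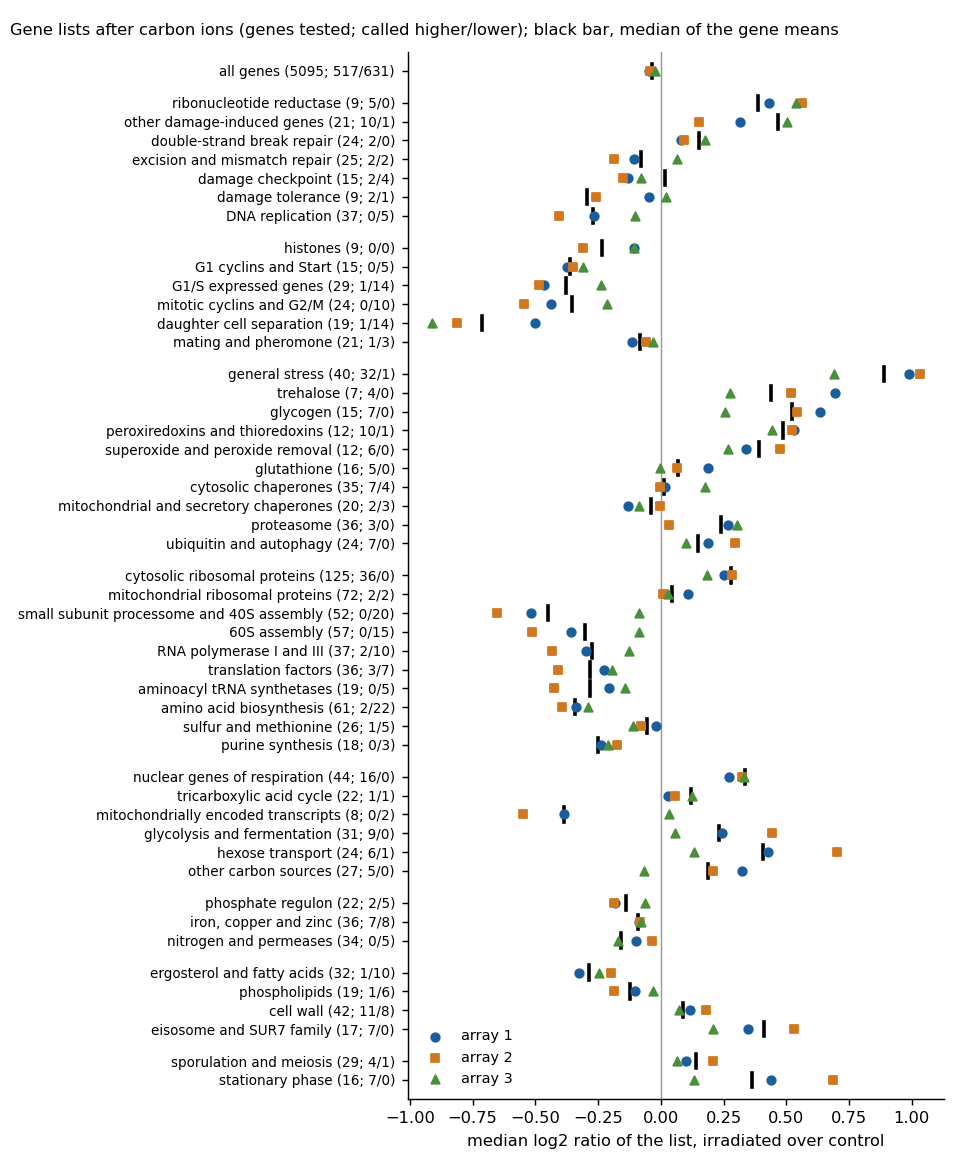
Median log2 ratio of irradiated over control for all genes and for each gene list, on each carbon ion array (coloured points) and over the gene means (black bars). Numbers beside each name are the genes tested and those called higher and lower. General stress lies highest among the larger lists, at 0.89, and daughter cell separation lowest, at -0.71. In 40S and 60S assembly array 3 lies near 0 while arrays 1 and 2 lie lower.

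The study's design also sets carbon ions beside the other radiations. Gamma rays were given at 17 Gy and thermal neutrons at 20.8 Gy, each with 3 arrays in the same table, on cells of the same strain in 2 ml of saline. Their labels give an exposure of 20.5 h and of 20 h. The labels of the gamma ray group also give 1.4 Gy per min, which over 20.5 h does not give 17 Gy. This mismatch was not resolved. The labels of the thermal neutron group give most of its dose rate to other radiation. The radiation, the dose and the time in cold saline therefore cannot be told apart in these differences, although each group has a control held for as long. The gamma ray arrays also have a single scan each, while high-power and low-power scans were averaged for carbon ions and thermal neutrons. The part of scanning in the differences was not tested. In a difference between groups the dye effect of a gene cancels only if it was the same in both, which was not tested. The comparisons share the carbon ion arrays. In limma, carbon ions differed from gamma rays in 1093 of 4750 genes (23%), 596 higher (12.5%) and 497 lower (10.5%). They differed from thermal neutrons in 542 of 5033 genes (10.8%), 236 higher (4.69%) and 306 lower (6.08%).

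HUG1, RNR4 and RNR2 rose more after carbon ions than after either. Of the 9 genes of the ribonucleotide reductase group 5 were above gamma rays and 3 above thermal neutrons. The mean of HUG1 was 3.11 after carbon ions, 1.97 ± 0.20 after gamma rays and 1.60 ± 0.08 after thermal neutrons, and the differences were 1.14 (SE 0.18, adjusted p = 0.0015) and 1.51 (SE 0.18, adjusted p = 0.00056). RNR4 was higher by 1.32 (adjusted p = 0.00046) and by 0.92 (adjusted p = 0.0064), and RNR2 by 1.10 (adjusted p = 0.0018) and 1.11 (adjusted p = 0.0033). The carbon ion values of RNR4 and RNR2 come from low-power scans only, and the gamma ray values from single scans. DDR2 was higher by 0.89 and 1.11 (adjusted p = 0.0034 and 0.0021). HUG1 and DDR2 are short, with spans of 207 and 186 bp. Genes of at most 300 bp had a median difference of 0.43 from gamma rays and -0.04 from thermal neutrons. The part of length in the differences of these 2 genes was not tested. RFX1, at 0.93 ± 0.18 after gamma rays and 0.91 ± 0.43 after thermal neutrons, did not differ beyond the threshold from either (adjusted p = 0.31 and 0.42). RNR1 did not differ beyond the threshold from thermal neutrons (0.16, SE 0.31), but stood 1.79 above gamma rays (SE 0.31, adjusted p = 0.0021), after which it was at -1.83 ± 0.07. For fast neutrons (20.3 Gy), on another array type in a table of their own and so not tested against carbon ions, HUG1 stood at 2.86 ± 0.49, RNR4 at 2.55 ± 0.26 and RNR2 at 2.22 ± 0.37. Other damage genes went the other way against thermal neutrons. RFA1, the large subunit of RPA, was lower by 1.30 (adjusted p = 0.0053), MAG1 by 0.93 (adjusted p = 0.013) and DDI1, a neighbour of MAG1 that shares its control region, by 1.40 (adjusted p = 0.0023). Of 21 other damage-induced genes 6 were lower and 1 higher than after thermal neutrons.

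Daughter separation genes were lower after carbon ions than after gamma rays in 9 of 19 and than after thermal neutrons in 7 of 19. SCW11 was lower by 1.34 and 0.79 (adjusted p = 0.00055 and 0.018), EGT2 by 1.33 and 0.91 (adjusted p = 0.00046 and 0.0078) and PRY3 by 1.01 and 0.90 (adjusted p = 0.0023 and 0.0086). DSE2 was lower than after gamma rays by 1.50 (adjusted p = 0.00046), while against thermal neutrons the difference was -0.18 (SE 0.20). DSE4 was lower by 1.03 than after gamma rays and by 1.48 than after thermal neutrons (adjusted p = 0.0056 and 0.0018). CLN2 was lower than after gamma rays by 0.88 (adjusted p = 0.0044) and did not differ beyond the threshold from thermal neutrons (-0.10, SE 0.18). The fast neutron means of SCW11, DSE1, DSE4 and EGT2 were -2.06 ± 0.46, -1.87 ± 0.18, -1.66 ± 0.08 and -1.77 ± 0.14, and CLN2 stood at -0.79 ± 0.24.

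The median of the general stress genes was 0.58 after gamma rays, 0.89 after carbon ions and 1.02 after thermal neutrons. Cytosolic chaperone genes (-0.45, 0.01 and 0.71) and proteasome genes (-0.36, 0.24 and 1.02) had the same order. HSP12 was 2.21 above gamma rays (SE 0.22, adjusted p = 9.1e-05), where it stood at -0.22 ± 0.20, and did not differ beyond the threshold from thermal neutrons (0.14, SE 0.22). Of 39 general stress genes 18 were higher and 2 lower than after gamma rays, and of 40 against thermal neutrons 3 were higher and 8 lower. Chaperone genes lay between the other groups, with 18 of 34 above gamma rays and 18 of 35 below thermal neutrons. SSA4 was at 0.69 after carbon ions and at 4.84 ± 0.16 after thermal neutrons, a difference of -4.15 (SE 0.16, adjusted p = 3.8e-08). Proteasome genes did the same, with 15 of 36 above gamma rays and 22 of 36 below thermal neutrons. The cytosolic ribosomal protein genes were above gamma rays in 58 of 125, with a median difference of 0.48. Across all genes the difference from gamma rays had Spearman's rho of -0.353 with gene span, and the difference from thermal neutrons a rho of 0.011.

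Hexose transport and other carbon source genes lay below gamma rays and above thermal neutrons. Of 24 hexose genes 16 were lower than after gamma rays, and of 23 against thermal neutrons 13 were higher. HXT2 stood at 1.45, 1.64 and -0.42 on the carbon ion arrays, at 2.32 ± 0.49 after gamma rays and at -2.14 ± 0.69 after thermal neutrons. The differences were -1.43 (SE 0.48, adjusted p = 0.049) and 3.03 (SE 0.49, adjusted p = 0.0032). HXT5 was lower than after gamma rays by 1.35 and higher than after thermal neutrons by 2.02 (adjusted p = 0.0089 and 0.0026). Of 27 genes for other carbon sources 15 were lower than after gamma rays and 9 higher than after thermal neutrons. In the phosphate group 14 of 22 genes were lower than after thermal neutrons. PHO89, a sodium and phosphate cotransporter, was at 0.49, 0.89 and 0.65 after carbon ions and 2.96 below gamma rays (SE 0.24, adjusted p = 3.8e-05).

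**Figure D5:**
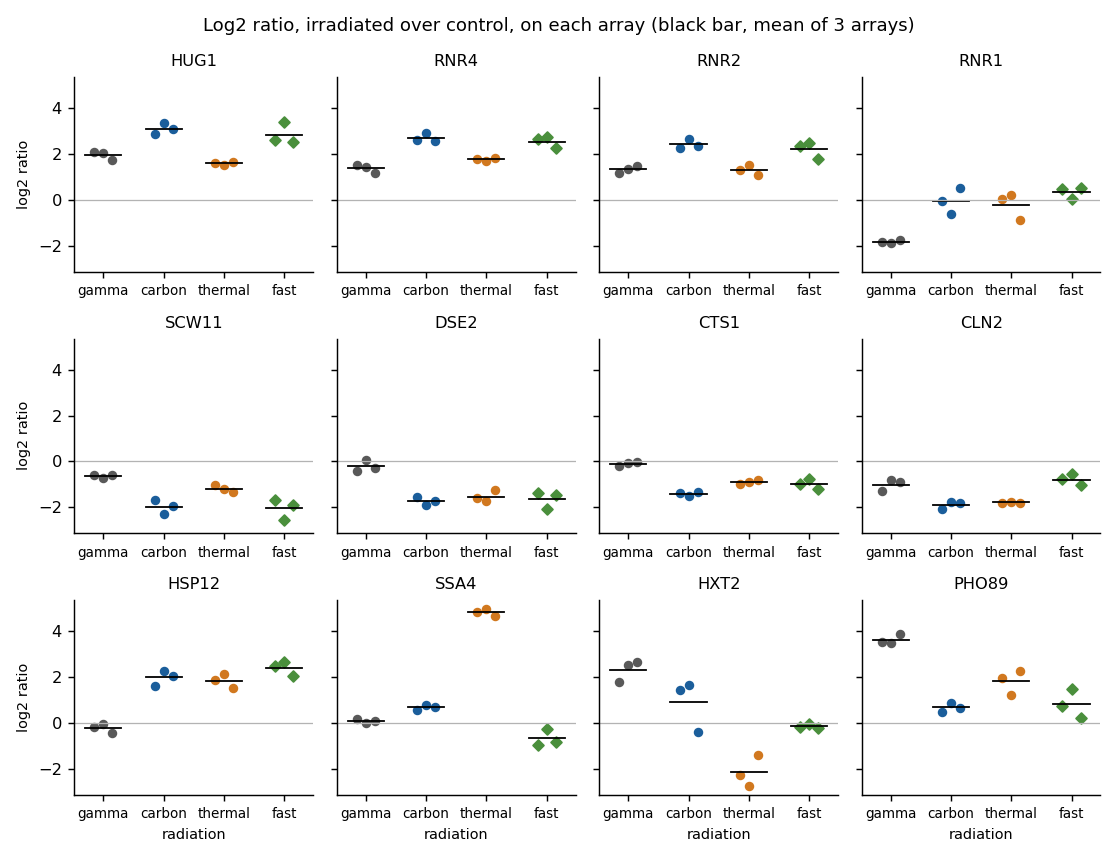
Log2 ratio of irradiated over control for 12 genes on each array of the 4 radiations. Points are arrays and black bars the mean of 3 arrays. Diamonds mark fast neutrons, which come from another array type and table. HUG1, RNR4 and RNR2 lie highest after carbon ions among the first 3 groups, SSA4 lies near 4.84 after thermal neutrons only, and PHO89 near 3.63 after gamma rays.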

How the data were processed

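The deposited values are log ratios of irradiated over control, LOWESS-normalised by the authors from unflagged spots, per the labels. The base is not stated there, and the deposited values were read as log2 because their lowest value, -6.64, is log2 of 0.01. Scans at 2 laser powers rescued spots above the scanning range, but the gamma ray arrays have a single scan each. Background correction is not given in the sources used here. Probes were named from the platform annotation and RefSeq: of 6912 probes 5446 had 1 symbol and 1466 none. Means were taken over a gene's probes and over an array's scans.

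limma 3.58.1 (R 4.3.3) was fitted to the 9 arrays of 1 table, with Benjamini-Hochberg adjustment over all genes with 3 values, and tested on simulated data. Members and gene lists were chosen with earlier results of these data known. Any measured list member could be named and, outside the lists, the 15 highest and 15 lowest means that passed both fits with 1 sign, and the 5 largest differences each way between radiations. Replicate numbers do not pair samples: residuals of same-numbered arrays correlated between -0.263 and 0.131. Alternatives covered scaling, centring, scans, array weights, the replicate block, gene length and leaving out arrays. No column of samples was left unused.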

Additional observations from a re-analysis of the deposited data

Results flagged for a closer look

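Differences between radiations were tested in limma on 9 arrays. Carbon ions and gamma rays differed in 1093 genes. The 5 genes furthest below gamma rays, as log2 differences, were POT1 (-3.00), of fatty acid oxidation, PHO89 (-2.96), the lactate transporter JEN1 (-2.91), the carbonic anhydrase NCE103 (-2.81) and the maltase MAL32 (-2.79), which has a near-identical copy. The 5 furthest above were TYE7 (2.34), a factor for glycolytic genes, HSP12 (2.21), YLR297W (2.13), CIP1 (1.93) and AHA1 (1.93), a partner of Hsp90.

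Carbon ions and thermal neutrons differed in 542 genes. Furthest below were SSA4 (-4.15), BTN2 (-3.32), HSP42 (-3.06), HSP104 (-3.03) and ARO9 (-2.71), and furthest above YKR075C (3.72), RCK1 (3.25), HXT2 (3.03), HXT4 (2.91) and MTH1 (2.80). On carbon ion array 3, YKR075C stood at -0.15 and HXT4 at -0.15, against 2.73 and 1.17 on array 1. For HXT4 array 3 lay above all 3 thermal neutron arrays (-2.30, -2.56 and -1.54), and for YKR075C it lay below the highest of them (0.15). Dose, holding time and radiation cannot be told apart in any of them.

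Among probes with no gene symbol, which no comparison above uses, 25 of 427 passed (5.85%), 24 higher and 1 lower. The median log2 ratio of the higher ones was 0.80.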

How the results depend on the processing

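With 3 arrays a group the number of calls varied with the setting, and a count does not say which genes passed. For carbon ions against control, limma called 2212 genes with array weights (962 higher, 1250 lower), 1730 with arrays scaled to 1 spread (961 lower) and 532 with the carbon ion arrays alone (290 higher, 242 lower). Leaving out 1 array gave 399 to 1086 (228 to 487 higher, 171 to 599 lower). Centring on the median gave 617 higher and 511 lower, so the majority turned. For carbon ions minus gamma rays, array weights gave 1768 (924 higher, 844 lower), low-power scans 312 lower, and leaving out 1 array 606 to 951 (327 to 543 higher, 279 to 433 lower). For carbon ions minus thermal neutrons, array weights gave 1555 (712 higher, 843 lower) and leaving out 1 array 219 to 635 (90 to 283 higher, 124 to 352 lower). The cause of these moves was not tested, except that fewer arrays leave a fit less to go on. The replicate block gave 998, 976 and 423 calls in the 3 comparisons, where the samples share only a number. The high-power scans gave 1066 for carbon ions, the low-power scans 1044, and removal of the length trend 970, 808 and 562.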
